A study of Mus musculus with 8 samples.

Results

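The 25 genes described here are the antigen presentation, interferon and complement genes among the 812 genes of a table that compared cultured alveolar type II epithelial (AT2) cells of 2 mouse genotypes. They were taken by symbol: every gene whose name began with H2-, Ifi, Isg, Oas or Gbp, the interferon regulatory factors and STAT genes, the immunoproteasome subunits *Psmb8* and *Psmb9*, the peptide transporters *Tap1* and *Tap2*, *Ciita*, and the complement genes from the C1q family to the factors B, H, I and D, with *Cd74* and *Hc* added. The rule reads only symbols, although it was written with earlier results of these data known. All 812 genes had been marked significant by the authors, so a gene without a difference could not enter. The paper itself reports fewer differentially expressed genes than these 812, and how its set relates to the table was not examined. The GENCODE M21 annotation of the mouse genome holds 147 protein-coding genes with such names. Of these, 24 were in the table, and *H2-Q5*, which is annotated as a polymorphic pseudogene, was the 25th member. The other names, all *Oas* and *Stat* genes, *Tap1*, *Tap2*, *Psmb8*, *Psmb9* and *Ciita* among them, were not analysed here.

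The cells were primary AT2 cells of C57BL/6 mice after a single passage. Both groups carried a floxed *RhoA* gene, which encodes a small GTPase of the actin cytoskeleton. In the WT group (*RhoA fl/fl*) the gene was left intact, and in the *Sftpc-cre;RhoA fl/fl* group a Cre recombinase under the promoter of surfactant protein C was to remove it. Both groups were exposed in culture to cockroach allergen (CRE) at 50 µg/mL for 16 h. The comparison thus asks how loss of RhoA alters the transcripts of allergen-exposed AT2 cells and includes no cells without allergen. The authors also describe the sequenced cells as taken from lungs of their asthma model, and a figure legend names CRE-treated mice. Exposure of the animals before isolation is therefore possible. Studies that the authors cite found *Sftpc* expressed in mature airway epithelium too. In their own mice the authors saw it in basal cells but not in central airways. They report RhoA deletion in AT2 cells and in neither of those. The cells had been enriched by dissecting off the trachea and airways and by removing those that carried CD16/32, CD45, Ter119 or Sca-1. They were not sorted for an AT2 protein. The labels list 4 samples of each genotype, but the table gives 1 FPKM value per genotype, made by the authors. Hence no spread between samples or sequencing depth is available for any value below and no test was run here, since the test columns of the table are the authors' own comparison. Each level is the authors' group value, and differences are descriptions of these group values. *Rhoa* and *Sftpc* were not among the 812 genes, so the deletion was not checked here. Other AT2 markers were in the table, but its most abundant transcript in both genotypes was *Scgb1a1*, a secretoglobin of club cells, at 27285 FPKM in WT and 9204 FPKM in *Sftpc-cre;RhoA fl/fl* cells. The part of airway cells in the values below was not tested. FPKM corrects for transcript length as well as for library size, so levels of different genes can be compared on it. In bulk RNA, fewer cells of a type and less RNA per cell cannot be told apart.

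MHC class I molecules present peptides made inside the cell to CD8 T cells, and MHC class II molecules present peptides taken up from outside to CD4 T cells. Interferons raise both, together with a large set of antiviral genes, and complement is a cascade of plasma proteins that marks and lyses targets. AT2 cells, which secrete surfactant and renew the alveolar epithelium, are known for carrying class II molecules without being professional antigen-presenting cells.

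Antigen presentation genes were higher in *Sftpc-cre;RhoA fl/fl* AT2 cells without exception among those in the table, whereas interferon and complement genes went both ways. All 5 class II genes and all 7 class I genes were higher. Of 10 interferon genes, 6 were higher and 4 were lower, and of 3 complement genes, *Hc* and *C6* were higher and *C2* was lower. In all, 20 of the 25 genes (80%) were higher, against 55.2% of the 812 genes of the table, and 5 were lower, against 44.8%. Differences are given on the scale of log2(FPKM + 1), where 1 is a 2-fold difference. Past 2-fold were 14 of the 25 (56%), 11 of them higher and 3 lower, against 52.1% of the table, a share near the background. Among higher genes alone, the median difference was 1.04 for the 20 members and 0.94 for the 448 of the table. Over both directions, where a median also reflects the share of higher genes, it was 0.99 for the 25 and 0.65 for all 812 genes. That last value is set by the authors' choice of significant genes, and when it was subtracted from every gene, 19 of the 25 were still higher, with *Irf1* at -0.027. Then 6 were past 2-fold (24%, against 49.6% of the table), namely *Ifi202b* on the higher side and all 5 lower genes, and no class I or class II gene was. Without the pseudocount, 17 of the 25 were past 2-fold, 13 higher and 4 lower (68%, against 67.0% of the table).

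**Figure D1:**
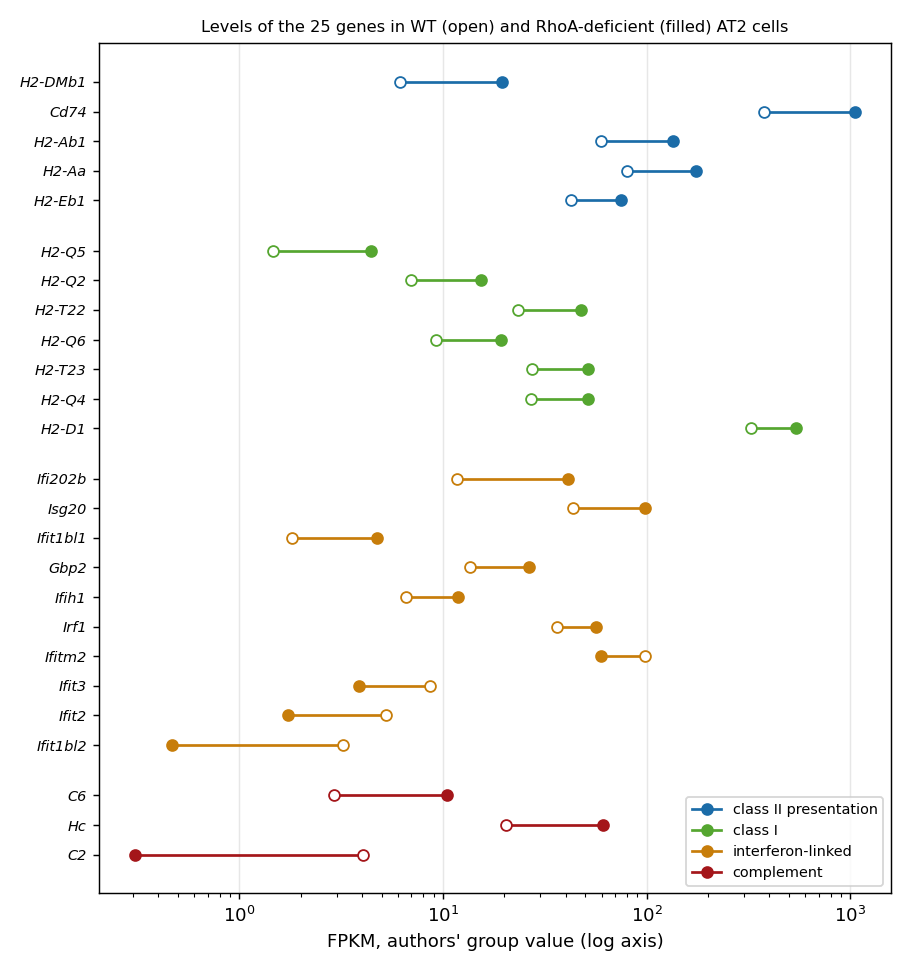
FPKM (log scale) of each of the 25 genes in WT and *Sftpc-cre;RhoA fl/fl* AT2 cells, grouped by role; each point is the authors' single value for a genotype, so no error is drawn. The 12 class I and class II genes are all higher in *Sftpc-cre;RhoA fl/fl* cells, from *H2-Q5* at 1.47 and 4.45 to *Cd74* at 375 and 1047.

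*Cd74* (ENSMUSG00000024610.15, on chromosome 18) encodes the invariant chain, which fills the peptide groove of new class II molecules and escorts them to endosomes. It was measured at 375 FPKM in WT cells and at 1047 FPKM in *Sftpc-cre;RhoA fl/fl* cells, a ratio of 2.80 and a difference of 1.48. By level it stood at place 13 of the 812 genes in WT cells and at place 8 in *Sftpc-cre;RhoA fl/fl* cells, above all other members.

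The α chain gene *H2-Aa* (ENSMUSG00000036594.15) and the β chain gene *H2-Ab1* (ENSMUSG00000073421.6) encode the pair that forms I-A, the classical class II molecule of C57BL/6 mice. *H2-Aa* went from 80.2 FPKM in WT cells to 175 FPKM in *Sftpc-cre;RhoA fl/fl* cells, a difference of 1.12. *H2-Ab1* went from 59.8 to 135 FPKM, a difference of 1.16. The pair moved in step: *H2-Aa* stood at 1.34 times the level of *H2-Ab1* in WT cells and at 1.30 times in *Sftpc-cre;RhoA fl/fl* cells. *H2-Eb1* encodes the β chain of I-E, a class II molecule that C57BL/6 mice do not form because their α chain gene for it is defective. The gene was measured at 42.6 FPKM in WT and 74.9 FPKM in *Sftpc-cre;RhoA fl/fl* cells. Its difference of 0.80 was the smallest of the 5 class II genes, and the ratio of *H2-Ab1* to *H2-Eb1* was 1.41 in the former and 1.80 in the latter. *H2-DMb1* encodes a β chain of H2-DM, the endosomal chaperone that exchanges the invariant chain remnant for peptide. It was the least abundant class II gene, at 6.12 FPKM in WT cells and 19.5 FPKM in *Sftpc-cre;RhoA fl/fl* cells, and it had the largest difference of the class, 1.52, a 3.18-fold ratio. Summed over the 5 genes, class II transcripts came to 563 FPKM in WT and 1451 FPKM in *Sftpc-cre;RhoA fl/fl* cells. Without *Cd74*, which made up most of that sum, the 4 chain genes came to 189 and 404 FPKM. The invariant chain was thus 4.67 times as abundant as *H2-Aa* in WT cells and 5.98 times as abundant in *Sftpc-cre;RhoA fl/fl* cells.

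Promoter windows are shown for the 3 class II genes that had one, because the Y box is a known element of class II promoters. Each window runs from 250 bases before to 50 bases after a RefSeq transcription start on GRCm38.p6, written 5′ to 3′ on the gene's strand. Positions count from the start, with negative numbers before it. Capitals mark CCAAT or its reverse complement ATTGG, the core letters of the Y box of class II promoters, and in *H2-Eb1* and *H2-DMb1* also a run of 13 bases that these windows share. The windows lie at chr17:34287774-34288073 on the minus strand for *H2-Aa*, at chr17:34305617-34305916 on the plus strand for *H2-Eb1* and at chr17:34152941-34153240 on the plus strand for *H2-DMb1*.
H2-Aa: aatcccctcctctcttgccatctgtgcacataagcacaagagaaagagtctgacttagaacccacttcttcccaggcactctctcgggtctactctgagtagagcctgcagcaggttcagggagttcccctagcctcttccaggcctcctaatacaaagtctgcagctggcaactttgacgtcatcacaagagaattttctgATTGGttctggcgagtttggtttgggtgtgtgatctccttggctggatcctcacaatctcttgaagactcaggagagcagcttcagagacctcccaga
H2-Eb1: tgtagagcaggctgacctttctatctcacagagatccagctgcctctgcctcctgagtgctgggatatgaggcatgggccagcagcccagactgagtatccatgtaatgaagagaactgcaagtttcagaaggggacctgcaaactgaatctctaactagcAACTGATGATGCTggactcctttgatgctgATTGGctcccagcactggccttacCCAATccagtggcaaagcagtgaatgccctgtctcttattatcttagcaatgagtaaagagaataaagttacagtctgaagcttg
H2-DMb1: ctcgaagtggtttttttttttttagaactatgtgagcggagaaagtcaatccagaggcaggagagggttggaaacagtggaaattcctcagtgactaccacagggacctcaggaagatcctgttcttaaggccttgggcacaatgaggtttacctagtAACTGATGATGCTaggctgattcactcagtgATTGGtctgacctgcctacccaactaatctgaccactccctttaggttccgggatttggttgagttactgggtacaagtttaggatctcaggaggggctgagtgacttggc
All 3 windows held CCAAT or ATTGG close to the start. ATTGG began at position -48 in *H2-Aa*, at -59 in *H2-Eb1* and at -61 in *H2-DMb1*. In *H2-Aa* and *H2-Eb1*, but not in *H2-DMb1*, it was part of the longer CTGATTGG. The shared run, aactgatgatgct, began at position -89 in *H2-Eb1* and at -92 in *H2-DMb1*. It was found in 3 of 32851 RefSeq windows of this length, searched on both strands. The window of *Slc39a10*, a zinc transporter gene, was the third. The shared letters were picked out after the sequences had been read, and they describe the windows without showing that a factor binds there.

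*H2-D1* (ENSMUSG00000073411.12) encodes the heavy chain of H2-D, a classical class I molecule that presents peptides to CD8 T cells. It was the most abundant class I gene, at 325 FPKM in WT and 540.2 FPKM in *Sftpc-cre;RhoA fl/fl* cells. Its difference of 0.73, a 1.66-fold ratio, was the smallest of the 7 class I genes. *H2-D1* stood at place 16 by level among the 812 genes in both genotypes. *Cd74* was 1.15 times as abundant as *H2-D1* in WT cells and 1.94 times as abundant in *Sftpc-cre;RhoA fl/fl* cells.

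The non-classical class I genes had lower levels and somewhat larger differences. *H2-T23* encodes Qa-1, which presents signal peptides of other class I molecules to the NKG2A receptor of natural killer cells, and it went from 27.2 to 51.7 FPKM, a difference of 0.90. *H2-T22* encodes a ligand of some γδ T cell receptors and went from 23.4 to 47.7 FPKM, a difference of 1.00. The *H2-T* genes thus came to 50.6 FPKM together in WT and 99.4 FPKM in *Sftpc-cre;RhoA fl/fl* cells. Among the *H2-Q* genes of the Qa region, *H2-Q4* was at 27.1 FPKM in WT and 51.4 FPKM in *Sftpc-cre;RhoA fl/fl* cells. *H2-Q6* was at 9.24 and 19.3 FPKM, and *H2-Q2* was at 6.93 and 15.4 FPKM. The pseudogene *H2-Q5* was the lowest, at 1.47 and 4.45 FPKM. The *H2-Q* differences lay between 0.90 and 1.14, and together the 4 genes were at 44.8 and 90.5 FPKM. On the log2(FPKM + 1) scale, on which 52.1% of the table was past 2-fold, so were *H2-Q5* and *H2-Q2* of the 7 class I genes and 4 of the 5 class II genes, all but *H2-Eb1*. These counts depended on the scale: without the pseudocount, *H2-T22* and *H2-Q6* passed too, which made 4 of 7 class I genes beside the same 4 class II genes, against 67.0% of the table, and after centring on the median of all genes no gene of either class passed. No difference between the classes was tested. Summed, class I transcripts came to 421 FPKM in WT and 730.1 FPKM in *Sftpc-cre;RhoA fl/fl* cells, 1.73-fold, beside 2.58-fold for class II. These sums were carried by *H2-D1* and *Cd74*: the class II chain genes without *Cd74* were at 2.14-fold, the *H2-Q* genes at 2.02-fold and the *H2-T* genes at 1.96-fold.

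The class I windows are shown for *H2-D1*, the most abundant, and for *H2-T23*, which holds an interferon-type element. In *H2-D1*, at chr17:35262844-35263143 on the plus strand, capitals mark CCAAT or ATTGG. In *H2-T23*, at chr17:36032652-36032951 on the minus strand, they mark GAAA, any 2 bases and GAAA again, or the reverse complement with TTTC on either side, which is the core of the interferon-stimulated response element (ISRE).
H2-D1: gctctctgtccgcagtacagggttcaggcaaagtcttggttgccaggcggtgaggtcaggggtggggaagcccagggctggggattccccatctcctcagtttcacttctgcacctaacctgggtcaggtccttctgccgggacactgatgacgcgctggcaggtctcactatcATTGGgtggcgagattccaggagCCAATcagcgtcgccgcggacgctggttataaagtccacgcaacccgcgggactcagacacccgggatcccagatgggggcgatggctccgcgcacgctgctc
H2-T23: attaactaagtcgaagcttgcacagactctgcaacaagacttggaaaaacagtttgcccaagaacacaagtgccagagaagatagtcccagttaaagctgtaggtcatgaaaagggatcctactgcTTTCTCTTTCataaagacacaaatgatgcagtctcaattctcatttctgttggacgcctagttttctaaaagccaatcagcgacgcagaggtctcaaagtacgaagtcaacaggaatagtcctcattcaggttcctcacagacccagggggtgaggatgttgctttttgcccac
*H2-D1* held ATTGG at position -76 and CCAAT at -53, the latter within CCAATCAG, the reverse complement of CTGATTGG. *H2-T23* held its ISRE-type letters, TTTCTCTTTC, at position -124, and it also held CCAATCAG at -52. The 12 letters agccaatcagcg, which span that element, were in the windows of both genes and in 59 of the 32851 windows. *H2-D1*, *H2-Q4* and *H2-Q6* held no full ISRE-type match, but each held the letters TTTCACTTC, a match to the shorter pattern GAANNGAAA on the other strand, between positions -153 and -150. The shorter pattern was chosen after these windows had been read.

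Class I genes resemble one another, so reads can be assigned to the wrong copy. The share of each gene's 50-base words that also occurred in the exons of another gene was 12.8% for *H2-D1*, 14.5% for *H2-T23*, 16.1% for *H2-Q2*, 35.0% for *H2-Q6*, 36.4% for *H2-Q4* and for *H2-Q5*, and 53.5% for *H2-T22*. The main partner of *H2-T22* was *H2-T10*, and that of *H2-Q5* was *H2-Q7*. In the table, *H2-T22* and *H2-T23* also carried 1 common locus, chr17:35994452-36042747. The levels of the single *H2-Q* and *H2-T* genes are uncertain for these reasons, and so are their sums, since partners outside each sum share words with them and FPKM divides by each gene's own length. By shared words the class II genes were better separated, with none in *Cd74*, *H2-Ab1* or *H2-Eb1* and 0.514% in *H2-Aa*. *H2-DMb1* shared 22.7%, and its partner was *H2-DMb2*. The locus listed for *H2-Eb1*, however, began at 34293072, ahead of the gene's own start at 34305867. Over all members, 12 shared under 5% of their words, and 11 of these were higher, while of the other 13 genes 9 were higher. Of the whole table, 55.2% was higher. This split was made after the data had been seen, and no difference between its sides was tested.

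**Figure D2:**
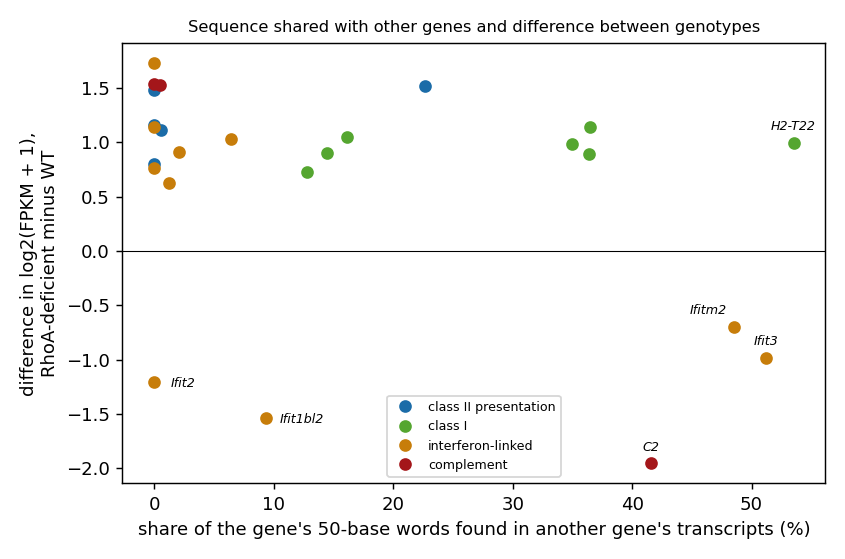
Difference between the genotypes on the log2(FPKM + 1) scale against the percentage of each gene's 50-base words found in another gene, for the 25 genes by role. The 12 genes under 5% include *Cd74*, *H2-Aa*, *H2-Ab1* and *H2-Eb1*, and *Ifit2* is the only lower gene among them.

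The 11 *H2-* genes lie on chromosome 17 of GRCm38, from *H2-DMb1* at 34153072 to *H2-T22* at 36042747. This span of 1890 kb holds 110 annotated protein-coding genes, and 21 of the 812 genes of the table lie in it. The class II genes *H2-DMb1*, *H2-Ab1*, *H2-Aa* and *H2-Eb1* begin within its first 153 kb, and the last of them ends at 34316674. *C2*, *H2-D1* and the *H2-Q* and *H2-T* genes follow in that order. The 9 other genes between them did not share a direction. *Ager*, an AT1 cell gene, went from 210 to 394 FPKM, a difference of 0.91, and *Sfta2*, a surfactant-associated gene, went from 59.4 to 135 FPKM, a difference of 1.17. *Ltb*, a lymphocyte cytokine gene, went from 33.5 to 8.34 FPKM, a difference of -1.88. *Notch4*, *Egfl8* and *Ppp1r18* were lower too, by -0.94, -0.76 and -1.12, and *Tnxb* and the heat shock genes *Hspa1a* and *Hspa1b* were higher, by 0.55, 0.82 and 1.04. In this span, then, every *H2-* gene of the table was higher, and the other genes were of either direction. The whole table also went both ways, with 55.2% of its genes higher. No difference between the *H2-* genes and their neighbours was tested.

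**Figure D3:**
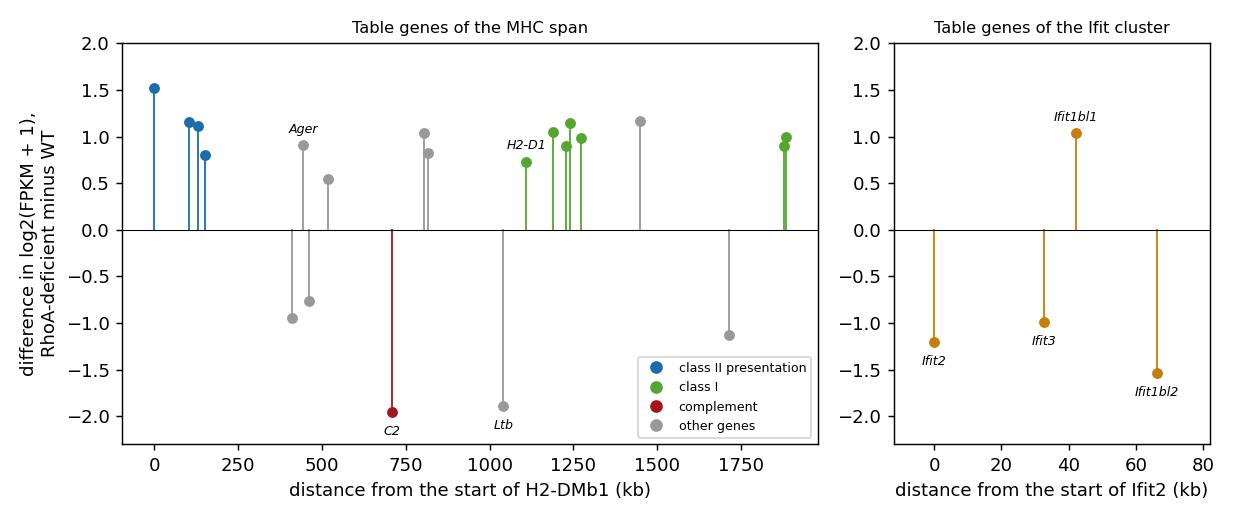
Difference on the log2(FPKM + 1) scale for the genes of the table along the MHC span on chromosome 17 and along the *Ifit* cluster on chromosome 19, with distance in kb from the first gene. All 11 *H2-* genes lie above 0, while *C2* and 4 other genes of the MHC span lie below, and *Ifit1bl1* is the only *Ifit* gene above 0.

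Interferon genes differed in direction. The higher ones were *Ifi202b*, *Isg20*, *Ifit1bl1*, *Gbp2*, *Ifih1* and, except after subtraction of the median of all genes, *Irf1*. *Ifi202b* encodes a HIN domain protein that binds DNA and had the largest difference among the higher members on this scale, though without the pseudocount *C6* was above it: 11.8 FPKM in WT and 41.2 FPKM in *Sftpc-cre;RhoA fl/fl* cells, 1.73 or 3.51-fold. *Isg20*, an exonuclease that degrades viral RNA, went from 43.7 to 97.8 FPKM, a difference of 1.15. *Gbp2*, a GTPase that attacks vacuoles of intracellular pathogens, went from 13.6 to 26.5 FPKM, a difference of 0.91. The sensor and the transcription factor of the group were higher by less. *Ifih1* encodes MDA5, which detects double-stranded RNA in the cytoplasm, and was at 6.55 and 11.8 FPKM, a difference of 0.77. *Irf1*, which drives class I genes and *Ciita* downstream of interferon γ, was at 36.2 and 56.2 FPKM, a difference of 0.62 and the smallest of all 25. Together *Ifi202b*, *Isg20*, *Gbp2*, *Ifih1* and *Irf1* came to 112 FPKM in WT and 234 FPKM in *Sftpc-cre;RhoA fl/fl* cells, 2.09-fold, a sum over genes that were all higher. Over all 10 interferon genes the sums were 228 and 304 FPKM, 1.33-fold.

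The lower interferon genes were *Ifitm2* and 3 of the 4 *Ifit* genes. *Ifit* proteins bind viral RNA and block its translation, and their genes are among the first that type I interferon induces. *Ifit2* was at 5.28 FPKM in WT and 1.73 FPKM in *Sftpc-cre;RhoA fl/fl* cells, a difference of -1.20. *Ifit3* was at 8.64 and 3.87 FPKM, a difference of -0.98. *Ifit1bl2* had the largest fold of the 3, with 3.24 against 0.465 FPKM, a difference of -1.53 and a level 6.96-fold lower. Its neighbour *Ifit1bl1* stood opposite, at 1.81 FPKM in WT and 4.75 FPKM in *Sftpc-cre;RhoA fl/fl* cells, a difference of 1.03. The 4 genes lie within 90.05 kb of chromosome 19, from 34550694 to 34640743 on GRCm38, in the order *Ifit2*, *Ifit3*, *Ifit1bl1*, *Ifit1bl2*, and 1 further protein-coding gene lies between these bounds. Summed, they came to 19.0 FPKM in WT and 10.8 FPKM in *Sftpc-cre;RhoA fl/fl* cells. *Ifitm2*, which encodes a membrane protein that hinders fusion of viruses with endosomes, was far more abundant and went from 97.5 to 59.7 FPKM, a difference of -0.70.

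Likeness among these genes also limits single values. *Ifit2* shared no 50-base word with another gene. *Ifit1bl1* shared 6.45% and *Ifit1bl2* 9.34%, of which 4.22% was with *Ifit1bl1*. *Ifit3* shared 51.2% of its words with other genes, chiefly *Ifit3b*, and *Ifitm2* shared 48.5%, chiefly with *Gm45717*, a gene that overlaps 40.9% of its exonic bases on the same strand. The values of *Ifit3* and *Ifitm2* are therefore uncertain.

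The *Ifit* windows are shown because neighbouring genes with the same kind of element differed in direction. Capitals mark the same ISRE-type letters as in *H2-T23*. The windows lie at chr19:34550444-34550743 on the plus strand for *Ifit2*, at chr19:34583279-34583578 on the plus strand for *Ifit3*, at chr19:34601919-34602218 on the minus strand for *Ifit1bl1* and at chr19:34640694-34640993 on the minus strand for *Ifit1bl2*.
Ifit2: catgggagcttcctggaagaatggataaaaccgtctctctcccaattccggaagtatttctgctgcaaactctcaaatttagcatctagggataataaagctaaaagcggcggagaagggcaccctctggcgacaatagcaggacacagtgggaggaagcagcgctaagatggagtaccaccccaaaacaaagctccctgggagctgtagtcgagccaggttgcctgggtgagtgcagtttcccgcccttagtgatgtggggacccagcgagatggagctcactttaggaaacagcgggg
Ifit3: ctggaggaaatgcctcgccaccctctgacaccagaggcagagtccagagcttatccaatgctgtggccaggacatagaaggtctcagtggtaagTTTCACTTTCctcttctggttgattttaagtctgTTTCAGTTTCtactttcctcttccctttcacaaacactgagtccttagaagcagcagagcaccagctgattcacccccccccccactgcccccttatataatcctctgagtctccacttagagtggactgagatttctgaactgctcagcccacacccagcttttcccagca
Ifit1bl1: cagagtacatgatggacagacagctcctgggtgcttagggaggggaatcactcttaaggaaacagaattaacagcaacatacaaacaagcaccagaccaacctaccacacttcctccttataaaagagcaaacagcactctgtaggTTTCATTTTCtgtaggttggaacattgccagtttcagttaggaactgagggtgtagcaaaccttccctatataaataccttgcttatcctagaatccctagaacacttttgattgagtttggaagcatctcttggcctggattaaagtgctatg
Ifit1bl2: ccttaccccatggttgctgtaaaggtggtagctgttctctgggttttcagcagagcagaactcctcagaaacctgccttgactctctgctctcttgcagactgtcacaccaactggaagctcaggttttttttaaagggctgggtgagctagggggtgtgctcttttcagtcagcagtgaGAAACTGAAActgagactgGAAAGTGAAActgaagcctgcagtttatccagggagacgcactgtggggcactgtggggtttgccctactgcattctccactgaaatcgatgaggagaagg
RefSeq gives 2 windows each for *Ifit2*, *Ifit1bl1* and *Ifit1bl2*, and the one nearest the start of the gene's GENCODE span is printed. *Ifit3* held the letters at positions -156 and -122, *Ifit1bl2* at -70 and -51, and *Ifit1bl1* at -104. The other window of *Ifit1bl1* held them at -23 and that of *Ifit1bl2* held none. Neither window of *Ifit2* held them, which says only that these letters are not there. *Ifit1bl1*, the higher gene, and *Ifit1bl2*, the lower one, thus both held the element, and their windows had no common run longer than 7 bases as printed.

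RefSeq windows were found for 21 of the 25 genes. *Cd74*, *H2-Ab1*, *H2-Q5* and *C2* had none. Each motif was searched on both strands. The ISRE-type motif (GAAA, any 2 bases, GAAA) was found in 8 of the 21 genes, against 3.99% of all 27025 genes with a window: *Gbp2*, *Ifih1*, *Ifit1bl1*, *H2-T22* and *H2-T23*, which were higher, and *Ifit3*, *Ifit1bl2* and *Ifitm2*, which were lower. CCAAT was found in 14 of the 21, against 41.1% of all genes, including all 3 class II genes and all 6 class I genes with a window, 5 of the 10 interferon genes and neither complement gene. CTGATTGG, which contains ATTGG and so overlaps that search, was found in 5 of the 21 genes, against 4.70% of all genes, and the shorter GAANNGAAA in 4, against 8.68%. Many of the members are known for interferon control, so these counts describe the set and are no independent result.

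The 3 complement genes in the table were *Hc* and *C6*, which were higher, and *C2*, which was lower, and the other components were not analysed here. *Hc* (ENSMUSG00000026874.10, chr2:34983331-35061438) encodes C5, whose cleavage releases an anaphylatoxin and starts assembly of the membrane attack complex. It went from 20.4 FPKM in WT to 60.7 FPKM in *Sftpc-cre;RhoA fl/fl* cells, a difference of 1.53 and 2.97-fold. *C6* (chr15:4727175-4814967) encodes the next component of that complex and went from 2.92 to 10.4 FPKM, a difference of 1.54 and 3.56-fold. *Hc* was 6.99 times as abundant as *C6* in WT cells and 5.83 times as abundant in *Sftpc-cre;RhoA fl/fl* cells, and neither shared more than 0.479% of its words with another gene.

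*C2* (ENSMUSG00000024371.14, chr17:34862604-34898265) encodes the protease subunit of the classical pathway C3 convertase. It was at 4.06 FPKM in WT and 0.309 FPKM in *Sftpc-cre;RhoA fl/fl* cells, a level 13.2-fold lower and a difference of -1.95, the ninth largest among the 364 lower genes. A same-strand gene model, *Gm20547*, covers 42.8% of the exonic bases of *C2*, and 41.5% of its 50-base words occurred in another gene, so reads of *C2* could be counted elsewhere. With *Ifit1bl2*, it was 1 of 2 members below 1 FPKM in a genotype, and its difference depended on the pseudocount, at -3.35 with 0.1 added in place of 1.

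**Figure D4:**
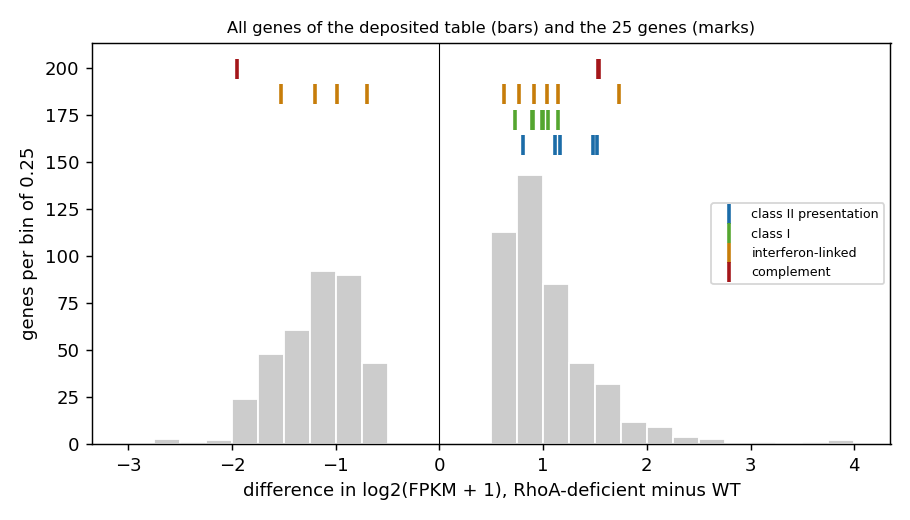
Distribution of the difference on the log2(FPKM + 1) scale over all 812 genes of the table, with the 25 genes marked by role. Members lie between -1.95 (*C2*) and 1.73 (*Ifi202b*), while the table runs from -2.73 to 3.92 and has no gene near 0, the closest being at -0.53 and 0.52, since it lists significant genes.

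The 5 lists of pathway partners that the symbol rule leaves out had few genes in the table. Of 101 such genes, 5 were present, 4 higher and 1 lower, beside 55.2% higher in the whole table. None of the 11 class I partners was present, among them the light chain gene *B2m* and the loading factor *Tapbp*, and of the 11 class II partners only *Lgmn*, an endosomal protease, was. *Lgmn* was at 34.5 FPKM in WT and 54.1 FPKM in *Sftpc-cre;RhoA fl/fl* cells, a difference of 0.63. Of 25 further interferon-induced genes, 3 were present and higher. *Cxcl10*, a chemokine for activated T cells, went from 29.5 to 65.4 FPKM, a difference of 1.12. *Parp14*, an ADP-ribosyltransferase, went from 5.85 to 13.0 FPKM, a difference of 1.04, and *Ly6e*, a membrane protein that restricts virus entry, from 473 to 761 FPKM, a difference of 0.69. Interferon genes themselves, their receptors and the other sensors of that list of 22 were not in the table, apart from *Ifih1*. Of 34 complement regulators, receptors and lectin pathway genes, *Serping1*, the inhibitor of the C1 proteases, was present and lower, at 9.32 against 2.76 FPKM, a difference of -1.46.

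Marker levels of other cell types differed between the groups as well, which bears on any gene that several lung cells express. Of 14 AT2 genes, 12 were in the table, all higher in *Sftpc-cre;RhoA fl/fl* cells, beside 55.2% of the whole table. Their summed level was 5479 FPKM in WT and 11143 FPKM in *Sftpc-cre;RhoA fl/fl* cells. *Lyz2*, which macrophages also express, gave most of that sum in each, at 3358 and 6561 FPKM. The AT2 differences ran from 0.93 to 3.16 with a median of 1.10. Of the 20 higher members, 9 lay above that median, 4 lay between it and the lowest AT2 gene, and 7 lay below the lowest AT2 gene. The median of the 20 higher members was 1.04. The AT2 markers therefore moved in the same direction as these genes, and their part in the levels was not tested.

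Leukocyte markers were mostly lower. Of 41 genes on the leukocyte lists, 11 were in the table, 9 lower and 2 higher, beside 44.8% lower in the whole table. Their summed level was 305 FPKM in WT and 228 FPKM in *Sftpc-cre;RhoA fl/fl* cells. *Ptprc*, which encodes CD45, was at 21.5 and 7.41 FPKM although CD45-positive cells had been depleted. The 4 T cell genes in the table, of 8 listed, came to 71.6 FPKM in WT and 18.0 FPKM in *Sftpc-cre;RhoA fl/fl* cells. Among professional antigen-presenting cells, 1 of 6 B cell genes was present, *Ighm*, at 92.9 and 41.1 FPKM, and 1 of 8 dendritic cell genes, *Ccr7*, at 20.1 and 5.48 FPKM. Of 12 macrophage genes, *Gpnmb* and *Lpl* were lower and *Cd14* was higher, at 65.8 and 132 FPKM, which took their sum from 96.4 to 139 FPKM. The other higher gene was *S100a9*, the 1 granulocyte gene present of 6, at 2.69 and 16.5 FPKM. No gene of the table was listed at 0 in either group. The higher class II levels came with lower levels of the B cell and dendritic cell genes measured and with a higher level of *Cd14*, and the part of these cells in the class II values was not tested.

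Markers of fibroblasts, endothelium and airway cells were lower in *Sftpc-cre;RhoA fl/fl* cells, as were 5 of the members and 44.8% of the whole table. The 2 fibroblast genes present of 7, *Col1a2* and *Dcn*, came to 91.7 FPKM in WT and 28.6 FPKM in *Sftpc-cre;RhoA fl/fl* cells. *Pecam1*, the 1 endothelial gene present of 6, was at 10.6 and 5.95 FPKM. Beside the club cell gene *Scgb1a1*, the only 1 of 3 present, the 3 ciliated cell genes present of 4 came to 88.9 and 39.2 FPKM. AT1 cell genes went both ways, with *Ager* and *Clic5* higher, *Hopx* and *Pdpn* lower and a sum of 548 FPKM in WT and 659 FPKM in *Sftpc-cre;RhoA fl/fl* cells. The part of these cells in the lower levels of *C2*, *Serping1*, *Ifitm2*, *Ifit2*, *Ifit3* and *Ifit1bl2* was not tested.

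**Figure D5:**
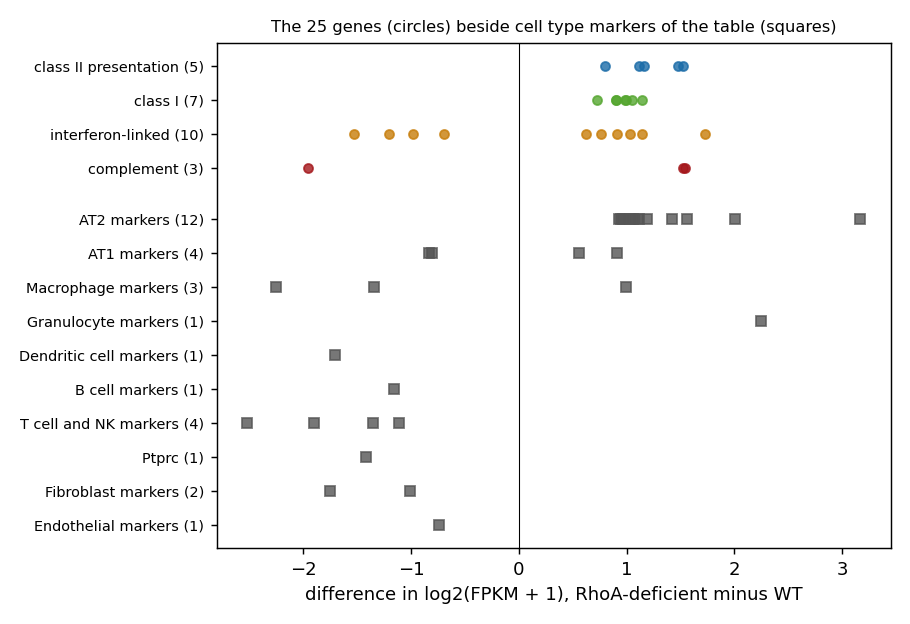
Difference on the log2(FPKM + 1) scale for the genes of each cell type list that were in the table, beside the 25 members by role. The 12 AT2 genes lie between 0.93 and 3.16, the 4 T cell genes lie below 0, and the class I and class II genes lie between 0.73 and 1.52.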

How the data were processed

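RNA of AT2 cells from 8 samples, 4 of each genotype, had been sequenced after poly(A) selection. The authors aligned reads with STAR 2.7.2b and compared the genotypes with Cufflinks; Partek is also named. The submitters' notes name mm9 and the methods GRCm38. Of 812 gene loci, 651 equal the gene's span in GENCODE M21 (GRCm38), so GRCm38 was used. All 812 identifiers matched it without version numbers. The deposited FPKM values are 1 per genotype, scaled by the authors for gene length and library size. The authors' log2 fold change, their test score and their p-value and q-value columns were deposited too and were not used. Read length and depth are not given in the sources used here.

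The members and lists were chosen with earlier results of these data known. All members were named, with the genes of fixed lists of pathway partners and cell type markers. A limma test on log2(FPKM + 1) had been planned, but the table held group values only, so differences, ratios and sums of FPKM were computed without a test. No filter was applied to the main values. Shared sequence was the percentage of distinct 50-base words of a gene's GENCODE M21 exons found in another gene, with 75 bases as an alternative. Promoter windows came from RefSeq (GRCm38.p6). GAANNGAAA and the shared runs were chosen after the sequences had been read. Alternatives were a pseudocount of 0.1 or none, centring on the median of all genes, a minimum mean FPKM of 1 or 5, and a 1.5-fold threshold. Matches to 1 further promoter motif are not reported here. The computation was tested on simulated data. Scripts ran under Python 3.11.15 with Matplotlib 3.10.9 for the plots and pandas 2.3.3 over NumPy 2.4.6 for the tables.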

Additional observations from a re-analysis of the deposited data

How the results depend on the processing

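With a pseudocount of 0.1 or none in place of 1, the 25 genes kept their direction, as they must. The median difference was 1.03 under each, against 0.99. Past 2-fold were 17 (68%) under each, against 14. The share of the whole table rose too, from 52.1% to 65.6% with 0.1 and 67.0% with none. Centring on the median of all genes gave a median of 0.34 and turned *Irf1* to -0.027. It left 6 genes past 2-fold, 1 higher and 5 lower in place of 11 and 3 (24%, against 49.6% of the table). A minimum mean FPKM of 1 removed no member. A minimum of 5 kept 20 genes, with 2 lower, 9 past 2-fold and a median of 0.99. The share of the whole table at that minimum is not given here, so these counts have no background. A 1.5-fold threshold passed all 25, as it did 97.9% of the table. Both of the following subsets were added after seeing the data. Among the 12 genes that shared under 5% of their 50-base words, 11 were higher and 1 lower, 8 were past 2-fold and the median was 1.13, beside 55.2% higher and 52.1% past 2-fold in the whole table. Among the 19 genes with a locus of their own, 3 were lower, beside 44.8% of the whole table. Past 2-fold were 13, beside the same 52.1%, and the median was 1.05. This subset leaves out *H2-Eb1*, *H2-Q4*, *H2-T22*, *H2-T23*, *Ifitm2* and *C2*. No paired analysis was possible because values of single samples were not given; leaving out replicates, planned too, was not run for the same reason. Depth is unknown, so counting error in the low values, such as those of *C2* and *Ifit1bl2*, could not be given.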
